A study of Homo sapiens and Mus musculus with 20 samples.

Results

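High mobility group (HMG) proteins are small, abundant non-histone proteins of chromatin. The 10 genes described here were chosen by symbol and form the 3 HMG families: HMGB1, HMGB2 and HMGB3, HMGA1 and HMGA2, and HMGN1 to HMGN5. They were read in the 12 IMR90 libraries of a series of 20, in which 17554 genes were listed in at least 1 experiment. All 10 were listed in the A485 and MS-275 experiments, and 9 in the pyruvate experiment, where HMGN5 was not analysed. IMR90 is a human fetal lung fibroblast line with a limited replicative lifespan. All IMR90 groups were wild type and held 2 libraries each. A485, an inhibitor of the acetyltransferase p300, was compared with the untreated group Control2. MS-275, which inhibits histone deacetylases of class I, was compared with the untreated group Control3. Pyruvate, the precursor of lactate, was compared with the untreated group Control6. The study asks how such treatments, which change histone lactylation, alter gene expression in cells on the way to senescence. It describes its pyruvate work in senescent cells, whereas the sample labels give no passage, dose or time. One cell line was used, and nothing states that the 2 libraries of a group came from separate cultures, so p-values measure only the spread between these libraries.

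HMGB proteins bind DNA without strong sequence preference through a pair of HMG boxes, and they bend it. HMGB1 also leaves the cell and acts as an inflammatory alarm signal, and loss of HMGB2 from chromatin is known to accompany entry into senescence. HMGA proteins hold AT-hooks, which grip the minor groove of AT-rich DNA. They are abundant in embryonic cells and tumours, HMGA2 is a classic target of the let-7 microRNAs, and both have been found in the heterochromatin foci of senescent fibroblasts. HMGN proteins bind the nucleosome itself, compete with linker histone H1 and loosen chromatin.

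Values are the reads of a gene after scaling of each library by its DESeq2 size factor. They are called normalized values below and given as mean ± SD with n = 2. Log2 fold changes are treated minus control on the log2(value + 1) scale, with the standard error (SE) of the fit, which understates changes of low genes. A change counted as called where limma gave an adjusted p below 0.05 (two-sided, Benjamini-Hochberg over every gene tested) and the absolute log2 fold change exceeded 1. The 12 libraries held 24179065 to 46971227 reads, of which 2.77% to 6.90% were mitochondrial. All 13 fibroblast markers were listed in every experiment, with a summed normalized value of at least 579399, whereas the epithelial, endothelial and leukocyte lists summed to at most 208, 237 and 21.4, with at most 1 of 6, 3 of 5 and 1 of 5 markers listed. In the MS-275 experiment the libraries numbered 1 and 2 stood apart in both groups. Their median absolute gap was 0.58 (Control3) and 0.61 (MS-275) on the log2 scale, against 0.11 to 0.33 in the other groups. Across 15636 genes the log2 difference of library 1 minus library 2 increased with transcript length (Spearman's rho 0.50 in Control3 and 0.48 after MS-275) and decreased with GC content (-0.37 and -0.46), given as a description.

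The promoter letters of members on which the results turn are shown first, because HMGB1, HMGB3 and HMGN2 are among the members that measured low after MS-275 and HMGA1 is one of the 2 that fell after A485. They are the 250 bases before the start of the canonical transcript, 5′ to 3′ on the gene's strand, from RefSeq on GRCh38.p14. Capitals mark CCAAT, the letters bound by the factor NF-Y, and TTTGAA, the core of the cell cycle element CHR. Of the 10 members, 8 matched the RefSeq table. HMGB1 lies at chr13:30465937-30466186 on the minus strand, HMGB3 at chrX:150983085-150983334 on the plus strand, HMGN2 at chr1:26472190-26472439 on the plus strand and HMGA1 at chr6:34236623-34236872 on the plus strand.
HMGB1: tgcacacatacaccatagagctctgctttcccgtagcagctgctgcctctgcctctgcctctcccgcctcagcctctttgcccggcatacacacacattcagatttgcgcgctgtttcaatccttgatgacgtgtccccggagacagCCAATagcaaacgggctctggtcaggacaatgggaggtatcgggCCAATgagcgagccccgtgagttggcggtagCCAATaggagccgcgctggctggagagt
HMGB3: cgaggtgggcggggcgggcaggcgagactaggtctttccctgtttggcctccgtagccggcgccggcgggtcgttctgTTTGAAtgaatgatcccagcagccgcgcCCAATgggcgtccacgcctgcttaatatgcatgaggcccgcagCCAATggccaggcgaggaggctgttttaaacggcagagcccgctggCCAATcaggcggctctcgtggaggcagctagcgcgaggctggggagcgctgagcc
HMGN2: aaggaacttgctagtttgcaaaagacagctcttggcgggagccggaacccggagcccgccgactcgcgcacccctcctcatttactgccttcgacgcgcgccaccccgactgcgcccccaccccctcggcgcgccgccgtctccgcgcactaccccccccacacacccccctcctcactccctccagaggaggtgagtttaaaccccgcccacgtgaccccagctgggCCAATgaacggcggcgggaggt
HMGA1: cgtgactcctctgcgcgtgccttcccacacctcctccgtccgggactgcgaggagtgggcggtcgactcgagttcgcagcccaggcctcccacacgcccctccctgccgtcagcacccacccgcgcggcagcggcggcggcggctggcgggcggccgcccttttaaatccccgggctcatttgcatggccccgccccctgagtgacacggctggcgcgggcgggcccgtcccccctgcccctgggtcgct

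HMGB1 and HMGB3 each held 3 CCAAT boxes on the gene's strand, starting 103, 59 and 28 bases before the HMGB1 start and 144, 101 and 55 bases before the HMGB3 start. HMGN2 held 1, starting 22 bases before its start, and the HMGA1 window held none. Over all 35116 windows of 250 bases in the table, 32.0% held CCAAT on either strand and 2.93% held 3 or more. Among the 8 members, 5 held it, with HMGN1 and HMGN3 having 2 each. TTTGAA or TTCGAA on either strand lay in 1 of the 8, HMGB3, against 14.3% of all windows. GGGCGG, the GC box, lay in 5 of the 8 on either strand, against 42.6% of all windows, with 5 copies before HMGA1 and none before HMGB1. None of the 8 held TATAAA or the E2F letters TTTCCCGC, TTTGGCGC, TTTCGCGC or TTTGCCGC on either strand, which lay in 10.7% and 2.79% of all windows. Members were counted at the canonical start alone, whereas the shares run over all windows, and the 8 members had 12. An HMGB1 window 696 bases from the canonical start held TTTGAA and 9 GC boxes. An HMGA1 window 1918 bases away held 1 CCAAT. These matches describe the letters only. HMGB2 and HMGA2 had no entry.

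Levels of the members were ordered per kilobase of the canonical transcript. In Control3, HMGA1 stood highest at 17816 ± 32.4 normalized reads per kilobase, above 99.1% of the genes listed. HMGN1 (8327 ± 1492), HMGN2 (5826 ± 270) and HMGA2 (3120 ± 53.4) followed. HMGB2 (2073 ± 39.3), HMGB1 (2057 ± 129) and HMGN4 (1720 ± 350) came next, and neighbours among these 3 overlapped in their libraries. HMGN3 (843 ± 240), HMGB3 (434 ± 12.8) and HMGN5 (58.2 ± 28.5) closed the order, and HMGN5, an X-linked HMGN with a long acidic tail, was above only 33.4% of genes. The order of means was the same in Control2. In Control6 it was not: HMGA1 remained first (13475 ± 11.9), HMGN2 (2179 ± 14.2) preceded HMGN1 (1460 ± 37.3), and the 3 HMGB genes held the last places, with HMGB2 at 36.5 ± 9.07. HMGB2 was thus above 94.3% of listed genes in Control2 and 91.5% in Control3, but above 27.5% in Control6. The 3 tables were normalized and filtered separately, so these places are given within each table and no test was made between controls.

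**Figure D1:**
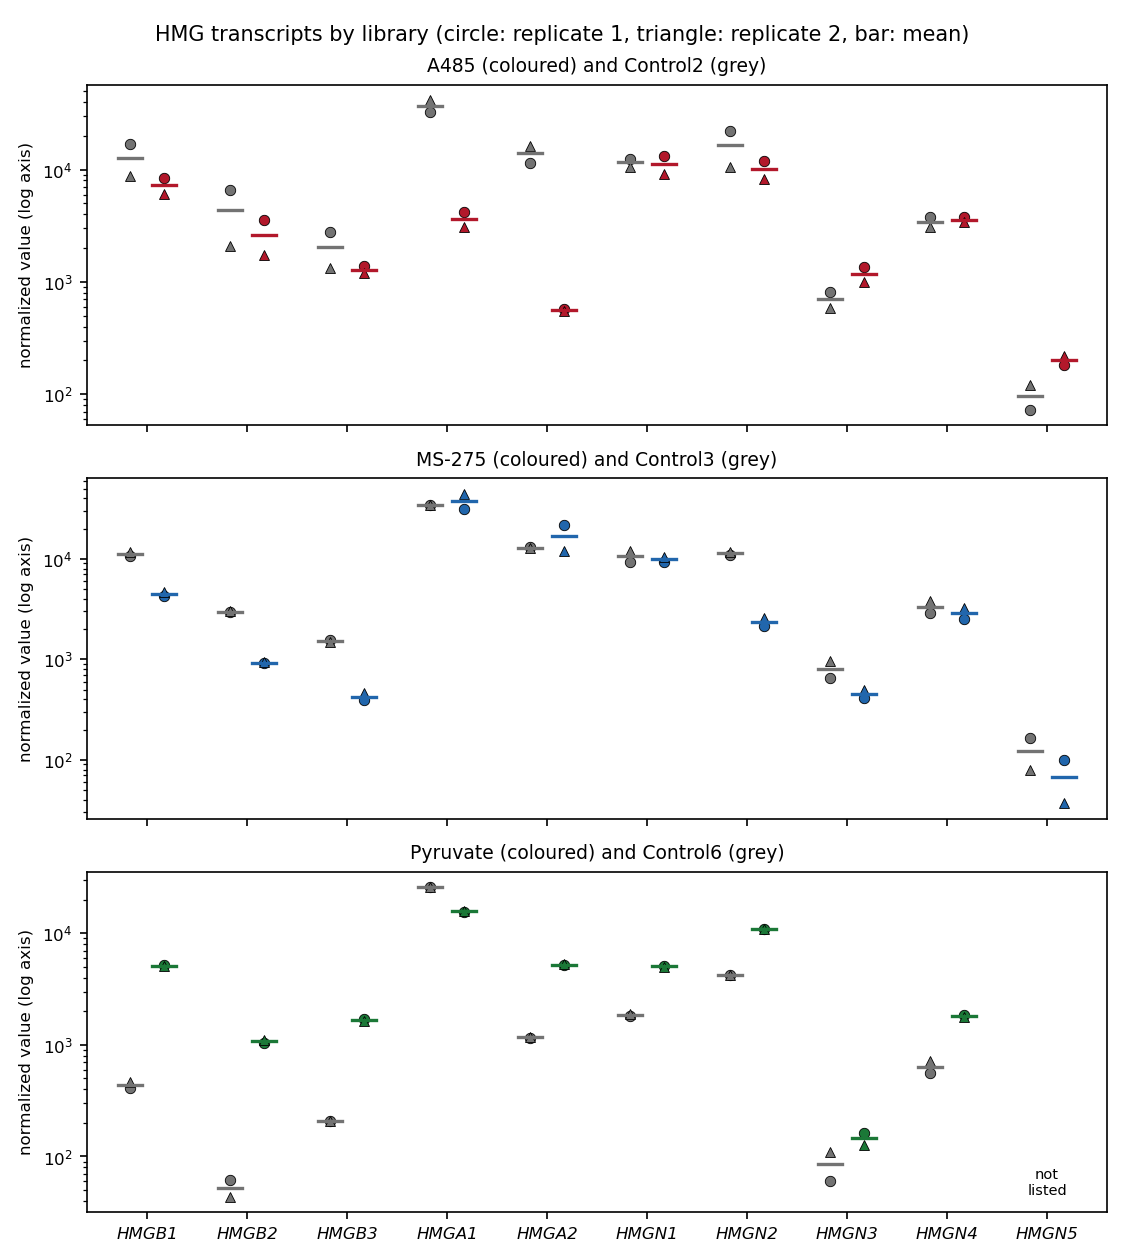
Normalized value (log axis) of each HMG gene in every IMR90 library, with one panel per experiment, grey for untreated and colour for treated, circles for replicate 1, triangles for replicate 2 and bars for the mean of 2. HMGA1 and HMGA2 separate in the A485 panel, the 3 HMGB genes and HMGN2 in the MS-275 panel, and the HMGB genes most widely in the pyruvate panel.

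After A485 the HMGA family fell and no other member was called. HMGA2 (ENSG00000149948, chromosome 12, 65824460 to 65966291, plus strand, 5 exons) measured 11532 and 16390 in Control2 and 569 and 550 after A485. The treated libraries lay far below both controls, and the mean was 24.9-fold lower, from 13961 ± 3435 to 560 ± 13.0. The log2 fold change was -4.62 (SE 0.21) with an adjusted p of 0.000812 (limma). HMGA1 (ENSG00000137309, chromosome 6, 34236873 to 34246231, plus strand, 6 exons) measured 32352 and 41662 in Control2 and 4228 and 3095 after A485. Its groups did not overlap either, and the mean was 10.1-fold lower, with a log2 fold change of -3.34 (SE 0.23) and an adjusted p of 0.00187 (limma). The 2 calls stand against 7.06% of 16084 genes called lower after A485 and 3.31% called higher. HMGA2 dropped from above 95.0% of listed genes per kilobase to above 45.8%, and HMGA1 from above 99.2% to above 92.1%. Both were also called by edgeR and DESeq2 on whole reads, and without each library in turn, with log2 fold changes of -4.87 to -4.36 for HMGA2 and -3.57 to -3.12 for HMGA1. The summed value of the 13 fibroblast markers was also lower after A485, at 579399 to 705353 against 1932364 to 2399366 in Control2; its part in these changes was not tested. As in any bulk sample, fewer cells of a kind and less RNA per cell cannot be told apart.

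The HMGB genes and HMGN2 were not called after A485, and the sign of HMGB2 turned without 1 control library. HMGB2 measured 6651 and 2093 in Control2 and 3542 and 1738 after A485, so the groups overlapped and the log2 fold change was -0.59 (SE 0.58). Without Control2 replicate 1 it was 0.25. HMGB1 measured 16782 and 8841 in Control2 and 8486 and 6058 after A485, with a log2 fold change of -0.76 (SE 0.34). Its treated libraries lay below both controls, as did those of 30.7% of all genes. HMGB3 (-0.58, SE 0.35) and HMGN2 (-0.63, SE 0.38) overlapped, and Control2 replicate 1 was the highest of the 4 libraries for all of HMGB1, HMGB2, HMGB3 and HMGN2. Proliferation genes were high in the same library: MKI67, the Ki-67 antigen, measured 8396 there and 2553 in Control2 replicate 2, and TOP2A, a mitotic topoisomerase, 9379 and 3459. Without that library the median log2 fold change of the 10 members moved from -0.58 to 0.00, beside a median of 0.01 over all genes.

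None of the 5 HMGN members passed the test after A485. HMGN1, the founding nucleosome-binding member, measured 12520 and 10630 in Control2 and 13098 and 9197 after A485, a log2 fold change of -0.07 (SE 0.23). HMGN4, whose gene is a retroposed copy of HMGN2, was at 0.07 (SE 0.18). HMGN3 measured 820 and 585 in Control2 and 1370 and 994 after A485, and HMGN5 72.8 and 121 against 183 and 221. Both lay above both controls, as did 30.4% of all genes, but neither was called (log2 fold changes 0.75 and 1.09, adjusted p 0.123 and 0.130, limma). Scaled to equal library totals, which moved the median of all genes to 0.40, both were called higher, at 1.15 and 1.48. That scaling called 1677 of 16119 genes higher, against 532 of 16084 in the main test.

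**Figure D2:**
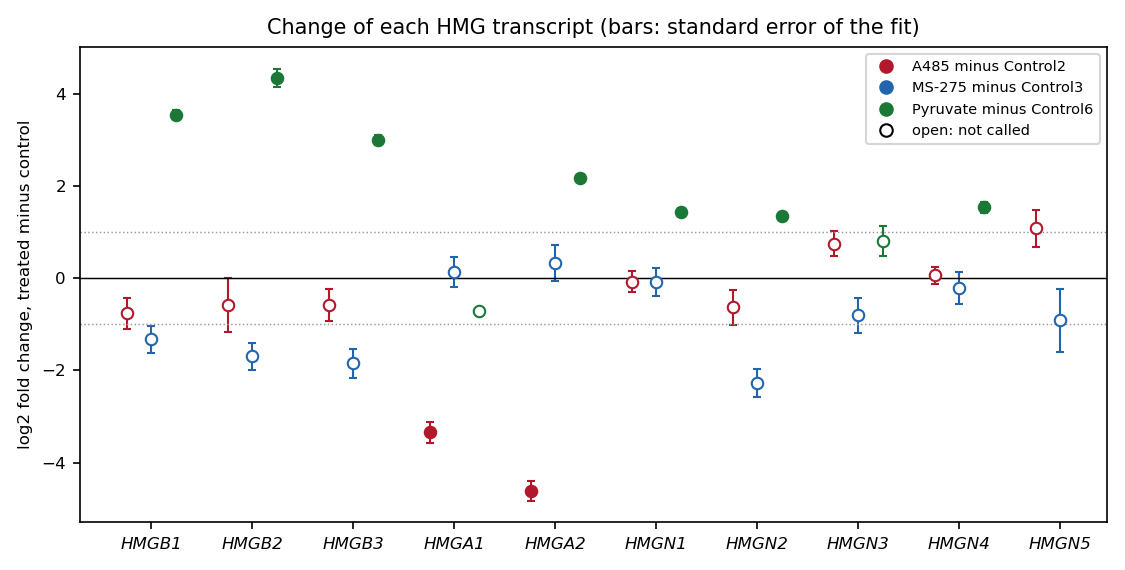
Log2 fold change (treated minus control, log2 scale) of each HMG gene for A485, MS-275 and pyruvate, with the SE of the fit as bars, filled points for called genes and open points for the rest. HMGA1 and HMGA2 are the only filled points below 0, at -3.34 and -4.62 after A485, and 7 points are filled above 0 after pyruvate.

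After MS-275 the low members were the 3 HMGB genes and HMGN2, whereas both HMGA genes overlapped with their controls. No gene in the table was called in the fit without the replicate number. HMGN2 (ENSG00000198830, chromosome 1, 26472440 to 26476642, plus strand, 6 exons) measured 10933 and 11674 in Control3 and 2152 and 2551 after MS-275. HMGB3 (ENSG00000029993, chromosome X, 150980509 to 150990771, plus strand, 5 exons) measured 1553 and 1490 against 389 and 457. HMGB2 (ENSG00000164104, chromosome 4, 173331376 to 173334432, minus strand, 5 exons) measured 2948 and 3028 against 911 and 940. For each of these genes the treated libraries lay close together and below both controls. HMGB1 (ENSG00000189403, chromosome 13, 30456704 to 30617597, minus strand, 5 exons) measured 10729 and 11721 in Control3 and 4292 and 4643 after MS-275. Mean values were 4.81-fold lower for HMGN2, 3.59-fold lower for HMGB3, 3.23-fold lower for HMGB2 and 2.51-fold lower for HMGB1. In limma the log2 fold changes were -2.27 (SE 0.30), -1.85 (SE 0.32), -1.69 (SE 0.30) and -1.33 (SE 0.29), with adjusted p of 0.163, 0.201, 0.208 and 0.251, so none passed the threshold. That fit took no account of the replicate number. With the number added as a block, limma called all 4 lower, beside 6.0% of genes called lower. Nothing states that the numbers pair samples, so the calls depend on that choice.

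HMGN2, HMGB3, HMGB2 and HMGB1 were the 4 of 10 members with an unadjusted p under 0.05 in limma without the block, beside 10.9% of 15883 genes. In that fit 0 genes of the table, or 0 percent, were called. Treated libraries lay below both controls for 5 of 10 members, the fifth being HMGN3, and for 19.3% of all genes. Taken within the replicate number, as MS-275 replicate minus Control3 replicate, the log2 differences were -1.69 and -1.69 for HMGB2, -1.32 and -1.34 for HMGB1, -1.99 and -1.70 for HMGB3 and -2.34 and -2.19 for HMGN2. The 2 numbers nearly coincided for HMGB1 and HMGB2 and lay farther apart for HMGB3 and HMGN2. A difference below -1 within both numbers was found for these 4 members and for 4.85% of all genes, given as a description without a test.

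The HMGA genes spread between replicate numbers instead. HMGA2 measured 13000 and 12689 in Control3 and 21918 and 11945 after MS-275, and HMGA1 34251 and 34163 against 31427 and 44600. The groups overlapped for both, with log2 fold changes of 0.33 (SE 0.40) and 0.13 (SE 0.32). HMGN1 (-0.08, SE 0.31) and HMGN4 (-0.21, SE 0.34) overlapped, as did HMGN5 (-0.91, SE 0.68), which was measured at 79.8 to 164 in Control3 and 36.9 to 98.8 after MS-275. HMGN3 measured 645 and 970 against 411 and 499, a log2 fold change of -0.80 (SE 0.38). The median over the 10 members was -0.86, beside -0.01 over all genes.

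**Figure D3:**
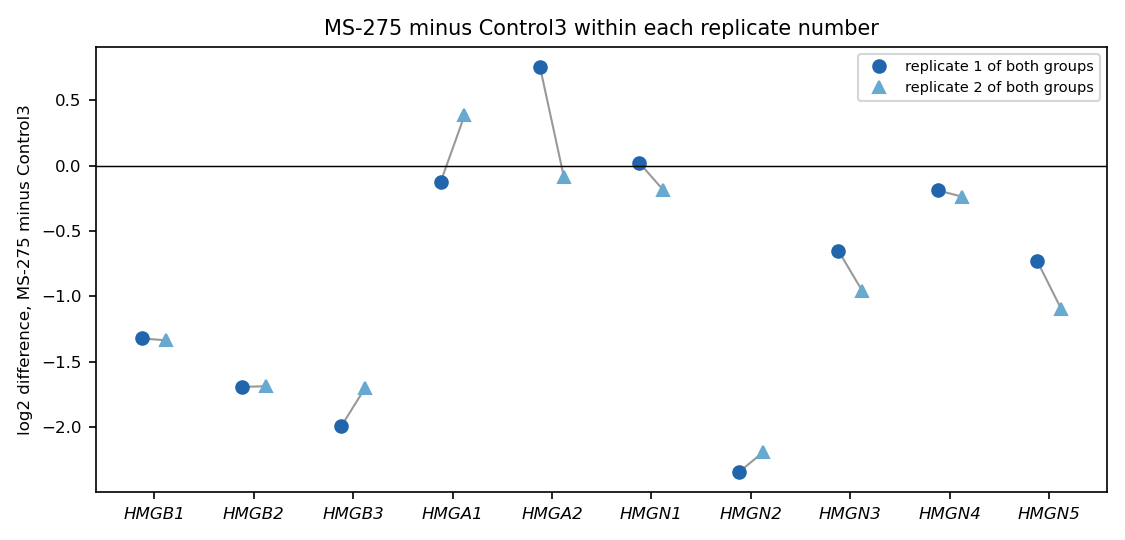
Log2 difference between MS-275 and Control3 for each HMG gene within replicate number 1 (circles) and within replicate number 2 (triangles), joined by a line. The 2 points of HMGB2 coincide at -1.69, whereas those of HMGA2 lie at 0.75 and -0.09.

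After pyruvate 7 of the 9 listed members were called higher, beside 31.0% of 12013 genes called higher and 23.1% called lower. The HMGB family moved most. HMGB2 measured 61.9 and 43.4 in Control6 and 1049 and 1101 after pyruvate, a 20.4-fold higher mean and a log2 fold change of 4.35 (SE 0.20, adjusted p 4.83e-09, limma). HMGB1 measured 410 and 462 against 5205 and 5043, an 11.8-fold higher mean and a log2 fold change of 3.55 (SE 0.09). HMGB3 measured 207 and 209 against 1710 and 1643, 8.05-fold higher, with a log2 fold change of 3.0 (SE 0.12). The groups were far apart for all 3, and HMGB2 moved from above 27.5% to above 83.6% of listed genes per kilobase.

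HMGA2 rose as well, from 1161 and 1169 to 5237 and 5250, a log2 fold change of 2.17 (SE 0.07, adjusted p 4.42e-10, limma). HMGA1 did not share its direction: it measured 25855 and 25888 in Control6 and 15462 and 15960 after pyruvate. Its log2 fold change was -0.72 (SE 0.05) with an adjusted p of 1.18e-07 (limma), short of the fold threshold. Of the HMGN family, HMGN4 rose from 554 and 711 to 1865 and 1782 (log2 fold change 1.54), HMGN1 from 1822 and 1889 to 5115 and 5014 (1.45) and HMGN2 from 4208 and 4247 to 10849 and 10886 (1.36). HMGN3 measured 60.9 and 110 against 163 and 127. Its log2 fold change was 0.81 (SE 0.32, adjusted p 0.0354, limma), short of the fold threshold. It was 1.23 without Control6 replicate 2, 0.39 without Control6 replicate 1 and 0.15 under quantile normalization. The median of the 9 members was 1.54, beside -0.01 over all genes.

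Change after pyruvate followed base composition across the transcriptome, and the members were read against it. Spearman's rho between transcript GC content and log2 fold change was -0.72 across 11888 genes, against -0.11 for A485 and -0.02 for MS-275, as descriptions across genes. HMGA1 was the GC-rich member at 61.6%, and the other members lay between 33.7% and 44.4%. With the GC and length trend removed from each library, HMGB2 (2.85), HMGB3 (1.86) and HMGB1 (1.59) were still called higher, beside 14.8% of genes. HMGA2 (0.88), HMGN1 (0.76), HMGN2 (0.59) and HMGN4 (0.23) were no longer called. The first 3 fell short of the fold threshold alone, with adjusted p of 2.6e-07, 6.6e-07 and 1.04e-06 (limma). HMGN4 passed neither threshold (adjusted p 0.0571, limma). HMGA1 turned from -0.72 to 0.45 and HMGN3 from 0.81 to -0.48 under that removal. The calls of HMGA1 and HMGA2 after A485 held under it, at -3.22 and -4.50.

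**Figure D4:**
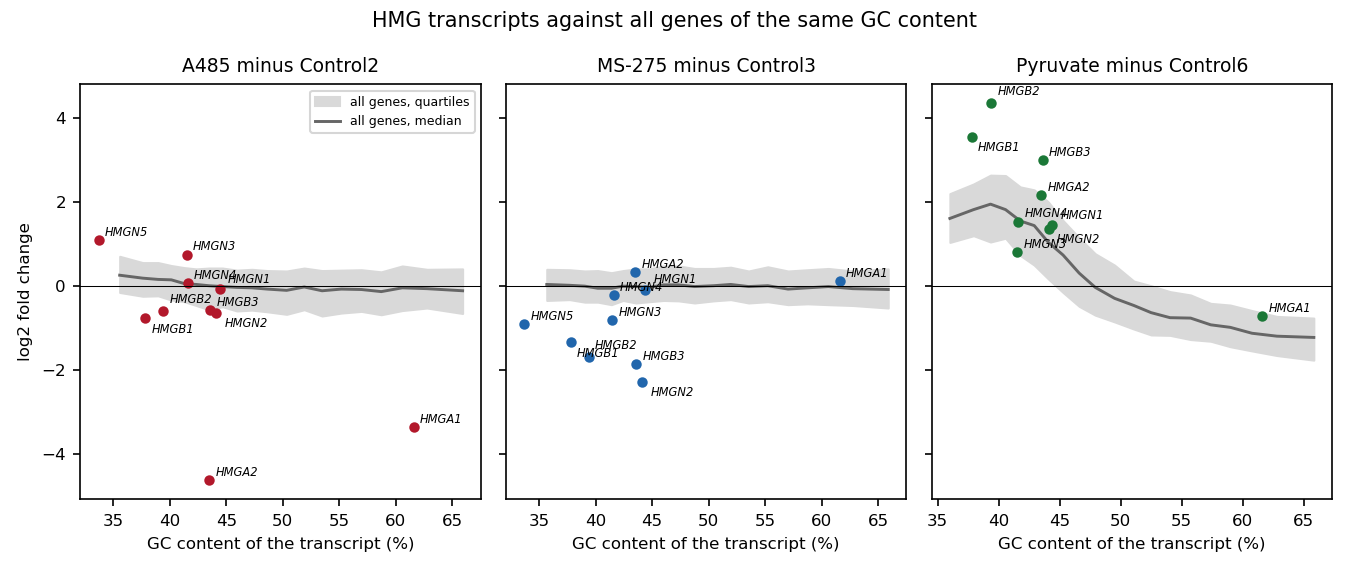
Log2 fold change of the HMG genes (points) against the GC content of their canonical transcript (%), over the median (line) and quartiles (band) of all genes in 20 bins of GC content, for each treatment. After pyruvate the line rises from 1.61 in the most AT-rich bin to 1.95 at 39.3% GC. It then falls to -1.22 in the most GC-rich bin, and the HMGB genes lie above the band.

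The effects of the treatments were set against each other with limma, as a contrast fitted to the 8 libraries of each pair of experiments, which share none. Each contrast took 1 residual spread per gene from both experiments, although replicate spread differed between them. For pyruvate minus MS-275 the SE of HMGB1 was 0.22, below the 0.29 of MS-275 minus Control3 alone. Adjusted p of these contrasts may therefore be too small. For A485 minus MS-275, 2 of 10 members differed, HMGA2 by -4.95 (SE 0.48, adjusted p 0.00345) and HMGA1 by -3.47 (SE 0.42, adjusted p 0.00816), beside 3.81% of genes. For the HMGB genes the difference was not past the threshold: it was 0.56 (SE 0.49) for HMGB1, 1.10 (SE 0.78) for HMGB2 and 1.27 (SE 0.52) for HMGB3, with adjusted p of 0.635, 0.541 and 0.264 (limma). For HMGN2 it was 1.64 (SE 0.54, adjusted p 0.171). For HMGN3 it was 1.56 (SE 0.48, adjusted p 0.148), and 1.65 (SE 0.37, adjusted p 0.0376) with the GC and length trend removed (limma). For pyruvate minus A485, 8 of 9 members differed, all but HMGN3, beside 65.4% of genes. For pyruvate minus MS-275 it was 8 of 9, all but HMGA1, beside 41.1% of genes, and HMGB2 had the widest gap (6.04, SE 0.32, adjusted p 0.000376). With the GC and length trend removed, 5 of 9 differed in that last pair. In pyruvate minus A485 it was 7 of 9. HMGN2 and HMGN4 were no longer past the threshold there, and HMGN3 was, at -1.35 (SE 0.40, adjusted p 0.0225, limma). The share of all genes is not given for these counts with the trend removed, so no background stands beside them.

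Similarity between members was described by Pearson's r over the 12 libraries, on log2 values minus the mean of the controls of the same experiment. All 12 points share 3 experiments and their treatments, and no p is given. HMGB1, HMGB2 and HMGB3 were nearly parallel (r 0.98 to 0.99). HMGN1 had an r of 0.95 with both HMGB1 and HMGB2, and HMGN4 of 0.95 and 0.94. All of these rose after pyruvate, and the GC trend was not removed here. After A485 and MS-275 the log2 fold changes were -0.07 and -0.08 for HMGN1 and 0.07 and -0.21 for HMGN4. They were -0.76 and -1.33 for HMGB1 and -0.59 and -1.69 for HMGB2. HMGN2 had an r of 0.86 with HMGB1, 0.87 with HMGB2 and 0.93 with HMGB3, while HMGA1 had an r of -0.00 with HMGB2 and was nearest to HMGA2 (0.81). Over 9769 genes with a mean of at least 100, the 5 most like HMGB2 were NASP, a histone H1 and H3 chaperone, MAD2L1, a spindle checkpoint protein, ARHGAP19, EZH2, the Polycomb methyltransferase, and POLD3, a DNA polymerase subunit (r 0.994 to 0.997). The 5 most like HMGA2 were LPAR1, a lysophosphatidic acid receptor, NTM, ANO4, PDGFRA, a platelet-derived growth factor receptor, and PHLDA1 (r 0.989 to 0.996). NTM measured log2 fold changes of -4.58, 0.52 and 2.15 after A485, MS-275 and pyruvate, beside -4.62, 0.33 and 2.17 for HMGA2.

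Of the 8 genes in a proliferation list, 7 were called higher after pyruvate, beside 31.0% of all genes. After A485 and MS-275 limma called 0 of 8, with 2 and 5 at an unadjusted p under 0.05, beside 30.8% and 10.9% of all genes. All 8 had log2 fold changes below 0 in both, and the medians were -1.11 and -2.82. CDK1, the mitotic kinase, measured 975 and 846 in Control3 and 118 and 96.7 after MS-275. TOP2A measured 21.6 and 29.3 in Control6 and 1060 and 1076 after pyruvate. Whether the HMGB values follow the share of dividing cells was not tested. Among partners of HMGB2 in the SET complex, 2 of 4 tested genes were called higher after pyruvate, beside 31.0% of all genes: SET, a histone chaperone, from 1994 and 2320 to 14071 and 13164, and ANP32A, its partner, from 850 and 801 to 2656 and 2581. NME1, a nuclease of that complex, was the only one of the 4 called after A485, at -1.08, beside 7.06% of genes called lower.

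Around HMGA2, 6 of 9 let-7 and oncofetal RNA-binding genes were tested. After A485 limma called 0 of 6, with 3 at an unadjusted p under 0.05, beside 30.8% of all genes, and a median log2 fold change of -0.30. After MS-275 it called 0 of 6, with 0 at that unadjusted p, beside 10.9%, and a median of 0.01. After pyruvate 3 were called higher and 1 lower, beside 31.0% and 23.1%. DICER1, the microRNA-processing nuclease, measured 41.2 and 56.4 in Control6 and 380 and 378 after pyruvate, and IGF2BP3, an oncofetal RNA-binding protein, 252 and 189 against 1042 and 1090. Among the receptors and extracellular partners of HMGB1, 1 of 5 tested was called lower after A485 (7.06% of all genes) and, after pyruvate, 1 of 3 higher and 1 lower (31.0% and 23.1%). After MS-275 limma called 0 of 4, with 3 at an unadjusted p under 0.05, beside 10.9% of all genes. CXCL12, the chemokine that HMGB1 binds, fell after A485 from 6420 and 1202 to 54.8 and 55.2 (log2 fold change -5.63) and rose after pyruvate from 11.8 and 33.6 to 146 and 140 (2.77). MYD88, an adaptor of Toll-like receptors, fell after pyruvate from 2758 and 2604 to 1130 and 1277 (-1.16).

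Reads of near-identical copies limit some of these values. Processed pseudogenes of the members had 11 rows over the 3 experiments, 4 of them of HMGB1. Their sum was 12.1% to 21.3% of the HMGB1 value, and at most 3.23% for any other member. HMGB1P5 and HMGB1P6, the highest of them, followed HMGB1: after pyruvate HMGB1P5 went from 16.7 and 39.1 to 503 and 527, and HMGB1P6 from 70.7 and 17.4 to 441 and 442. HMGN1P38, the third by mean level, measured 133 and 148 in Control3 and 138 and 147 after MS-275. Antisense partners were listed for HMGA2 and HMGN3 in the A485 and MS-275 experiments. The strand setting is not stated, so reads of HMGA2-AS1 (52.4 and 85.7 in Control2, 11.0 and 3.56 after A485) cannot be told apart from those of HMGA2.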

How the data were processed

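Bulk RNA-seq of 12 IMR90 libraries was used, in 3 experiments of 4 libraries. The authors trimmed reads with Trim Galore (version 0.6.10), mapped them to hg38 with HISAT2 (version 2.2.1), sorted them with SAMtools (version 1.7), counted them per gene with featureCounts (version 2.0.6) and normalized the counts with DESeq2 (version 1.34.0). The deposited values are a signal, namely gene counts scaled by the size factor of each library. The annotation and strand setting of the counting are not given in the sources used here. The 8 muscle libraries were not used.

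Groups came from sample titles. Values were tested on log2(value + 1) with limma (version 3.58.1, eBayes with a trend) in R (version 4.3.3), for genes whose mean reached 10 in the 4 libraries compared, and read from the fit of the whole table. All 10 members were named, with pseudogene rows counted and the 3 highest named, at most 3 called genes per context list by size of change, and the 5 genes most like HMGB2 and HMGA2. Members and lists were chosen with earlier results of these data known. Library depth was recovered as whole reads, with a tolerance of 0.01 reads. Reads of the A485 experiment were also tested with edgeR (version 4.0.16) and DESeq2 (version 1.42.0). Positions, lengths and GC content came from GENCODE release 44 on hg38, in which 17250 of 17554 symbols matched. Promoter windows came from RefSeq on GRCh38.p14. The limma fit of each comparison was tested on simulated data with known changes, in which libraries varied independently. No pair of libraries agreed within sampling noise (chi-square per gene 4.54 to 458). Alternatives covered the pseudocount, the filter, scaling, GC and length, the replicate block, other tools, a shared fit, the fold threshold and leaving out each library; adding pseudogene rows to their parents was chosen after seeing the data.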

Additional observations from a re-analysis of the deposited data

Results flagged for a closer look

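Of 28 member-by-pair tests of a difference between treatment effects, 18 passed an adjusted p of 0.05 (limma contrast, 8 libraries). Between A485 and MS-275 the effects on HMGA1 (-3.47) and HMGA2 (-4.95) differed on the log2 scale, A485 being the lower, beside 3.81% of genes. With the GC and length trend removed HMGN3 differed too, at 1.65 (adjusted p 0.0376, limma), A485 being the higher.

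Pyruvate and A485 differed in 8 members, beside 65.4% of genes, pyruvate being the higher in each. The HMGA genes differed by 2.62 (HMGA1) and 6.79 (HMGA2), although HMGA1 was below 0 in both comparisons. The HMGB genes differed by 4.32 (HMGB1), 4.94 (HMGB2) and 3.58 (HMGB3). The HMGN genes differed by 1.52 (HMGN1), 1.99 (HMGN2) and 1.47 (HMGN4). With the GC and length trend removed, HMGN2 and HMGN4 were no longer past the threshold, and HMGN3 was, at -1.35, pyruvate being the lower.

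Pyruvate and MS-275 also differed in 8 members, beside 41.1% of genes, pyruvate again being the higher. The differences were 4.88 for HMGB1, 6.04 for HMGB2, 4.85 for HMGB3 and 1.84 for HMGA2. For the HMGN genes they were 1.53 (HMGN1), 3.63 (HMGN2), 1.61 (HMGN3) and 1.75 (HMGN4). With the GC and length trend removed, the differences of HMGA2, HMGN3 and HMGN4 were no longer past the threshold.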

How the results depend on the processing

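Of 522 values of single members under an alternative, 479 kept their direction and their side of the threshold, and of 266 counts and medians 237 stayed within the range that replicates or a factor of 1.5 allow. HMGA1 and HMGA2 were called lower after A485 under every alternative run, and HMGB1, HMGB2 and HMGB3 higher after pyruvate. The cause of the changes below was not tested.

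Replicate numbers are shared by the groups, but nothing states that they pair samples. Deviations from group means correlated within numbers at 0.316 (A485), 0.728 (MS-275) and 0.00 (pyruvate). With the replicate block, 4 members were called lower after MS-275 (HMGB1, HMGB2, HMGB3 and HMGN2, adjusted p 3.38e-08, 1.26e-08, 3.84e-08 and 9.67e-11, limma) among 2183 genes called, 6.0% of genes being called lower. With the block 7 members differed between A485 and MS-275. With the block and the GC and length trend removed, the counts were 4, 2030 and 7. The share of all genes that differed is not given for either 7, so no background stands beside that count. After A485 the block raised calls over all genes from 1667 to 2486, within a factor of 1.5, and left the 2 HMGA calls; it changed no other call on a member. The fit shared by 12 libraries called 3 members lower after MS-275, without HMGB2, among 487 of 11989 genes called in either direction.

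Removal of the GC and length trend left 3 members called higher after pyruvate, with a median of 0.76 and 3439 genes called (3475 with the block), and turned HMGA1 to 0.45 and HMGN3 to -0.48 with and without the block. It left 5 members differing between pyruvate and MS-275, a count given without the share of all genes. HMGN1 after A485 turned to 0.06 with it. Scaling to equal library totals shifted the median gene from 0.01 to 0.40 after A485, to -0.15 after MS-275 and to 0.30 after pyruvate. It called 2 members higher after A485, beside 1677 of 16119 genes, with 65.1% of 2578 calls higher against 31.9% in the main test. It moved the median of the members after pyruvate to 1.85, with 71.7% of calls higher against 57.3%, HMGN1 after A485 to 0.32 and HMGA1 after MS-275 to -0.01. Quantile normalization gave 0.34 and -0.11 for the latter 2, with 42.6% of A485 calls higher and the median gene at 0.12 after A485 and -0.17 after pyruvate. GC and length removal put it at 0.12 after A485. Without the eBayes trend 840 genes were called after A485. Adding pseudogene rows to their parents, chosen after seeing the data, moved no member by more than the spread between replicates. After pyruvate, a fold minimum of 0.58 added 1 call lower, HMGA1, and 1 higher, HMGN3 (8 members higher instead of 7). HMGN3 was also called higher with equal library totals (1.11), and stood at 0.15, not called, under quantile normalization.

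Leaving out each library, genes called ranged from 117 to 844 after A485 (117 without A485 replicate 1, 167 without A485 replicate 2, 520 without Control2 replicate 2 and 844 without Control2 replicate 1), and from 0 to 419 after MS-275 (0 without MS-275 replicate 2, 12 without MS-275 replicate 1, 390 without Control3 replicate 1 and 419 without Control3 replicate 2). The median of the members after A485 ranged from -1.14 to 0.00. After A485, HMGB2 ranged from -1.42 to 0.25, HMGN1 from -0.33 to 0.18 and HMGN4 from -0.08 to 0.22. After MS-275, HMGA1 ranged from -0.12 to 0.38, HMGA2 from -0.10 to 0.77 and HMGN1 from -0.27 to 0.10. A group left with 1 library was assumed to vary like the other.

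edgeR and DESeq2 were run for A485 alone and left out for the other experiments. The lowest member values, 36.9 for HMGN5 after MS-275 and 43.4 for HMGB2 in Control6, carry the most counting error.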

Other observations

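Other HMG-box proteins, which share the DNA-binding fold of the HMGB family, were described by a list of 24. After pyruvate 8 of 22 tested were called higher and 2 lower, beside 31.0% and 23.1% of genes. The widest changes were in PBRM1, a subunit of a chromatin remodeller, which measured 106 and 144 in Control6 and 1362 and 1352 after pyruvate, SOX6, a developmental factor (37.3 and 85.7 against 468 and 555), and SOX4, another SOX factor (400 and 370 against 2489 and 2379). After A485 limma called 2 of 24 lower and 0 higher, beside 7.06% and 3.31% of genes, with 11 at an unadjusted p under 0.05 (30.8% of genes). After MS-275 it called 0 of 24, with 3 at an unadjusted p under 0.05 (10.9% of genes).

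H1-2, a replication-dependent linker histone of the kind with which HMGN proteins compete for nucleosomes, measured 1306 and 895 in Control2 and 2965 and 4871 after A485, a log2 fold change of 1.81 (SE 0.30, adjusted p 0.0187, limma). It measured 5378 and 6138 in Control6 and 257 and 254 after pyruvate (-4.49), where it was the only one of 3 linker histones tested that was called.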
